A study of Mus musculus with 21 samples.

Results

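The genes examined were 36 genes of glycolysis and of the response to low oxygen, and all 36 were present among the 32285 genes of the deposited count table. They were picked by symbol for their textbook roles, with earlier results of these data known. They comprised 3 transporters of glucose or lactate (Slc2a1, Slc2a3, Slc16a3), 15 enzymes of the path from glucose to lactate (Hk1, Hk2, Gpi1, Pfkl, Pfkp, Aldoa, Aldoc, Tpi1, Gapdh, Pgk1, Pgam1, Eno1, Eno2, Pkm, Ldha) and 2 enzymes that steer flux into or past that path (Pfkfb3, Pdk1). A further 4 encode the oxygen-sensing machinery (Hif1a, Epas1, Egln1, Egln3), 3 act at mitochondria (Bnip3, Bnip3l, Ndufa4l2) and 9 are other well-known targets of the hypoxia-inducible factors (Ero1l, Adm, Ankrd37, Ndrg1, P4ha1, P4ha2, Car9, Ddit4, Stc1).

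Glycolysis splits glucose into pyruvate in the cytosol, and lactate dehydrogenase turns the pyruvate into lactate when the cell does not burn it in mitochondria. In the presence of oxygen, prolyl hydroxylases such as Egln1 and Egln3 mark the alpha subunits of the hypoxia-inducible factors, Hif1a and Epas1 (HIF-2 alpha), for degradation. When oxygen is short the alpha subunits accumulate, bind a short DNA motif with their partner Arnt, and raise transcription of glucose transporters, glycolytic enzymes and genes such as Adm, a peptide that acts on vessels. The abundance of the factors is set mainly on the protein, so that the RNA of Hif1a or Epas1 does not measure their activity.

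The cells came from mT/mG mice, which carry a Rosa26 reporter and, without Cre, express membrane tdTomato in host cells, and which received fragments of MT-ret melanoma. Lung metastases and primary tumors were sorted into tdTomato+ cells of the tumor microenvironment (TME) and tdTomato- melanoma cells (MM), and lungs of unchallenged mice served as control. The mice were young adults of both sexes, no group received a drug, and the sources used here do not give, library by library, whether CD45+ cells had been removed. Primary tumors grew under the skin, whereas metastases and controls were lung, so that a comparison with the primary tumor is also one between organs. Primary tumors were resected by surgery before the mice were monitored for metastases, so that time and surgery differ as well. These cannot be told apart. The authors state that metastasis samples held a little adjacent lung without tumor. By the library names, replicate 5 of both tumors came from 1 mouse, replicate 6 of both from another, the pools shared some of their mice, replicate 4 and the lungs came from separate mice, and replicates 1-3, replicate 4, and replicates 5 and 6 were 3 runs. The mouse is not certain, since the TME counts of replicates 5 and 6 were also deposited under other mouse names, and some replicate numbers differed between library names and labels and were matched by mouse number or as the last one left. The tests took the libraries as independent, and values with the replicate number as a block are given where they moved a count by more than 1.5 times.

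First, 5 library names that repeated the barcodes and counts of another were removed. The names of replicates 1-3, 1 per mouse, were then joined into 1 library for each tumor, as in the labels. This left 16 libraries with 100359 cells. They held 1777036 to 60339415 UMIs (unique molecular identifiers, each standing for 1 captured RNA molecule), with a median of 1203 to 5356 UMIs per cell. Cells were clustered without the 36 genes and related ones, and UMIs were summed per library and cell class. Levels are given as CPM, the UMIs of a gene per 1000000 UMIs of that class in that library, in the order of replicates 1-3 (a pool; replicate 1 in lung), 4, 5 and 6. Replicate 5 of the metastasis TME libraries held 2095 cells in melanoma clusters among its 5166 cells, against 4 to 15 in each other tumor TME library. It was thus not comparable to them in purity. Melanoma markers were detected in the host classes of every tumor library. The summed CPM of 10 markers (Cd63 aside) was 230 to 8557 in the host classes of the tumor libraries compared, 7.19 to 65.9 in lung and 18683 to 25180 in the sorted melanoma cells, and the calls lost with the melanoma profile subtracted are named for each class. The metastasis library of replicate 6 was deposited under a TME and an MM name and is treated as TME, 1093 barcodes occurred in more than 1 library, and replicate 4 of the primary tumor MM libraries stood apart with a median of 1.11% mitochondrial UMIs against 11.2% in replicate 5.

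Promoters were inspected because many of the members are known targets of the hypoxia-inducible factors. RefSeq windows (GRCm38.p6, 250 bases before to 50 after a start) were at hand for 30 of the 36 genes, which had 40 windows. The core of the hypoxia response element, ACGTG or GCGTG on either strand (a CACGTG counts as 2 overlapping matches), occurred in 82.5% of these windows against 43.8% of all 32851 windows. By gene, 27 of 30 members (90.0%) held a match, against 46.7% of all genes, and 76.7% of members against 22.9% of all genes held at least 2 in 1 window. Members without a match in these windows were Gpi1, Tpi1 and Eno2. A match is a description of the letters and not of binding. Both cores contain CG, the windows were not matched for base composition and the members were picked for known roles. The shares are therefore no test. The 160 bases before the RefSeq start are shown on the gene's strand for 5 members whose levels are described below, with the motif in capitals. Tpi1, which had no match in its window but rose in every host class, is shown beside them.
Slc2a1: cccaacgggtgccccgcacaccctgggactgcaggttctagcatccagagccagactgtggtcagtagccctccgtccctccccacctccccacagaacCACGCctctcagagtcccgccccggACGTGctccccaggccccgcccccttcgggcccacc
Bnip3: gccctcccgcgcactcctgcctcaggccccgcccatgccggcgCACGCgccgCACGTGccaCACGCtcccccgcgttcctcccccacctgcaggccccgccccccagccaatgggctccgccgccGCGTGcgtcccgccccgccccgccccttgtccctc
Ero1l: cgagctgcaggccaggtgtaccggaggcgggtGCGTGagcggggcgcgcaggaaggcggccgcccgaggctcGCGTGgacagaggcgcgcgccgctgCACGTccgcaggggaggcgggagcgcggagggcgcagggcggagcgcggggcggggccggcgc
Adm: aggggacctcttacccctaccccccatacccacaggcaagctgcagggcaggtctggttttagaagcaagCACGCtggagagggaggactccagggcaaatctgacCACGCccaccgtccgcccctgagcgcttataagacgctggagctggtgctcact
Ankrd37: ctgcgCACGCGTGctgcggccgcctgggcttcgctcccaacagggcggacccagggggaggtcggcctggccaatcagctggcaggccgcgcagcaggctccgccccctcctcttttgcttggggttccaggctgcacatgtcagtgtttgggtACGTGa
Tpi1: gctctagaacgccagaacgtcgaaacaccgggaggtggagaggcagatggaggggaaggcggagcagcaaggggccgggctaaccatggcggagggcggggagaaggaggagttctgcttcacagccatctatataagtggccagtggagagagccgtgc

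These stretches lie at chr4:119108585-119108744 (plus strand, glucose transporter Slc2a1), chr7:138909507-138909666 (minus strand, Bnip3), chr14:45318573-45318732 (minus strand, Ero1l, listed by RefSeq as Ero1a), chr7:110627497-110627656 (plus strand, Adm), chr8:45999851-46000010 (minus strand, Ankrd37) and chr6:124814159-124814318 (minus strand, Tpi1). They hold 2, 5, 3, 2, 3 and 0 matches in that order, and in Bnip3 a pair forms the palindrome CACGTG. The GENCODE gene annotation places the start of the gene at 124814296 for Tpi1, 45318771 for Ero1l and 46005707 for Ankrd37. The printed stretch thus lies largely inside the gene for Tpi1 and wholly inside it for Ero1l and Ankrd37. For Tpi1 the missing match therefore says nothing of the bases before the GENCODE start.

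Melanoma cells carried most enzymes of the glycolytic path at higher mean levels than any host class. In metastases 19 of the 36 genes had their highest mean level in melanoma cells, 9 in neutrophils, 3 in fibroblasts, 3 in endothelium and 2 in macrophages. In primary tumors these numbers were 12, 10, 7, 4 and 3, and the highest class was the same in both tissues for 23 genes. This order describes clusters of the same cells and was not tested. Of the 15 enzymes, Hk2 was highest in neutrophils and Eno2 in fibroblasts in both tissues, and in primary tumors Pfkp was highest in neutrophils and Gapdh in macrophages. With cells thinned to 1000 UMIs the class highest over all tumor libraries was the same for 33 genes. Over all tumor libraries Pgk1, which makes the first ATP of the path, averaged 1152 CPM in melanoma cells against 200.5 in endothelium, 344 in fibroblasts, 381 in neutrophils and 463 in macrophages. The transporters had another order. Slc2a1 averaged 45.1 CPM in melanoma cells of metastases but 158 in macrophages and 112 in neutrophils there, and 37.3 in melanoma cells, 113 in macrophages and 191 in neutrophils of primary tumors. Over all tumor libraries Slc2a3, a high-affinity glucose transporter, averaged 239 in neutrophils and 0.587 in melanoma cells. Among the sensors, Epas1 was a gene of endothelium, with 1166 CPM there and 71.8 in fibroblasts, while the highest mean of Hif1a was 216 in melanoma cells in metastases and 303 in neutrophils in primary tumors.

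In melanoma cells none of the 35 members tested differed between metastasis and primary tumor (2 libraries each; edgeR quasi-likelihood test with Benjamini-Hochberg adjustment over all genes tested, called at an adjusted p below 0.05, as throughout). The p-values measure only the spread between these libraries. Over all genes 1 of 14317 was called (0.00698% of all genes called, 0% higher and 0.00698% lower), DESeq2 called no member, and 3 members had an unadjusted p below 0.05. The 36 genes took 1.79% and 1.15% of melanoma UMIs in metastases and 1.01% and 1.10% in primary tumors (replicates 4 and 5 of each, in that order below). Gapdh read 4086 and 1687 CPM in metastases and 1729 and 1467 in primary tumors, and Ldha read 1257 and 912 in metastases and 843 and 885 in primary tumors. Both genes had their highest value in replicate 4 of the metastases, and for both the second metastasis lay close to the primary tumors. The replicate 4 library was mixed, with 284 melanoma cells among 638, beside 86 B cells, 63 neutrophils and 26 macrophages, and it also held the highest Car9 value. The members with the largest fitted differences were low. Car9, a carbonic anhydrase at the cell surface, read 25.6 and 3.82 in metastases and 5.79 and 5.10 in primary tumors (1.15 ± 0.65 log2, adjusted p = 1). Ddit4, an inhibitor of mTORC1 signaling, read 7.41 and 8.18 in metastases and 19.1 and 12.9 in primary tumors (-1.10 ± 0.41, adjusted p = 1). For Eno2, a neuronal enolase, the values were 13.5 and 16.6 in metastases and 6.88 and 9.55 in primary tumors (0.87 ± 0.37, adjusted p = 1). The Car9 values overlapped between the sites, and neither of the other differences passed the test. In counts simulated from these libraries the test recovered 61.0% of genes changed by 2 log2 units. By name both replicate 5 libraries came from 1 mouse, and with a replicate block 113 genes and 0 members were called. The melanoma cells of the sites were also spread unevenly over clusters. A cluster led by Car6 and Fxyd1, with a median of 1.09% mitochondrial UMIs, held 28740 cells of primary tumors and 780 of metastases. For a cluster led by Pde10a and Epha5 the numbers were 7866 and 10749. The libraries held 284 and 11245 melanoma cells in metastases and 30352 and 6254 in primary tumors. Most primary tumor cells of the Car6 cluster thus came from replicate 4, the library that stood apart in mitochondrial share, and site cannot be told from library there.

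**Figure D1:**
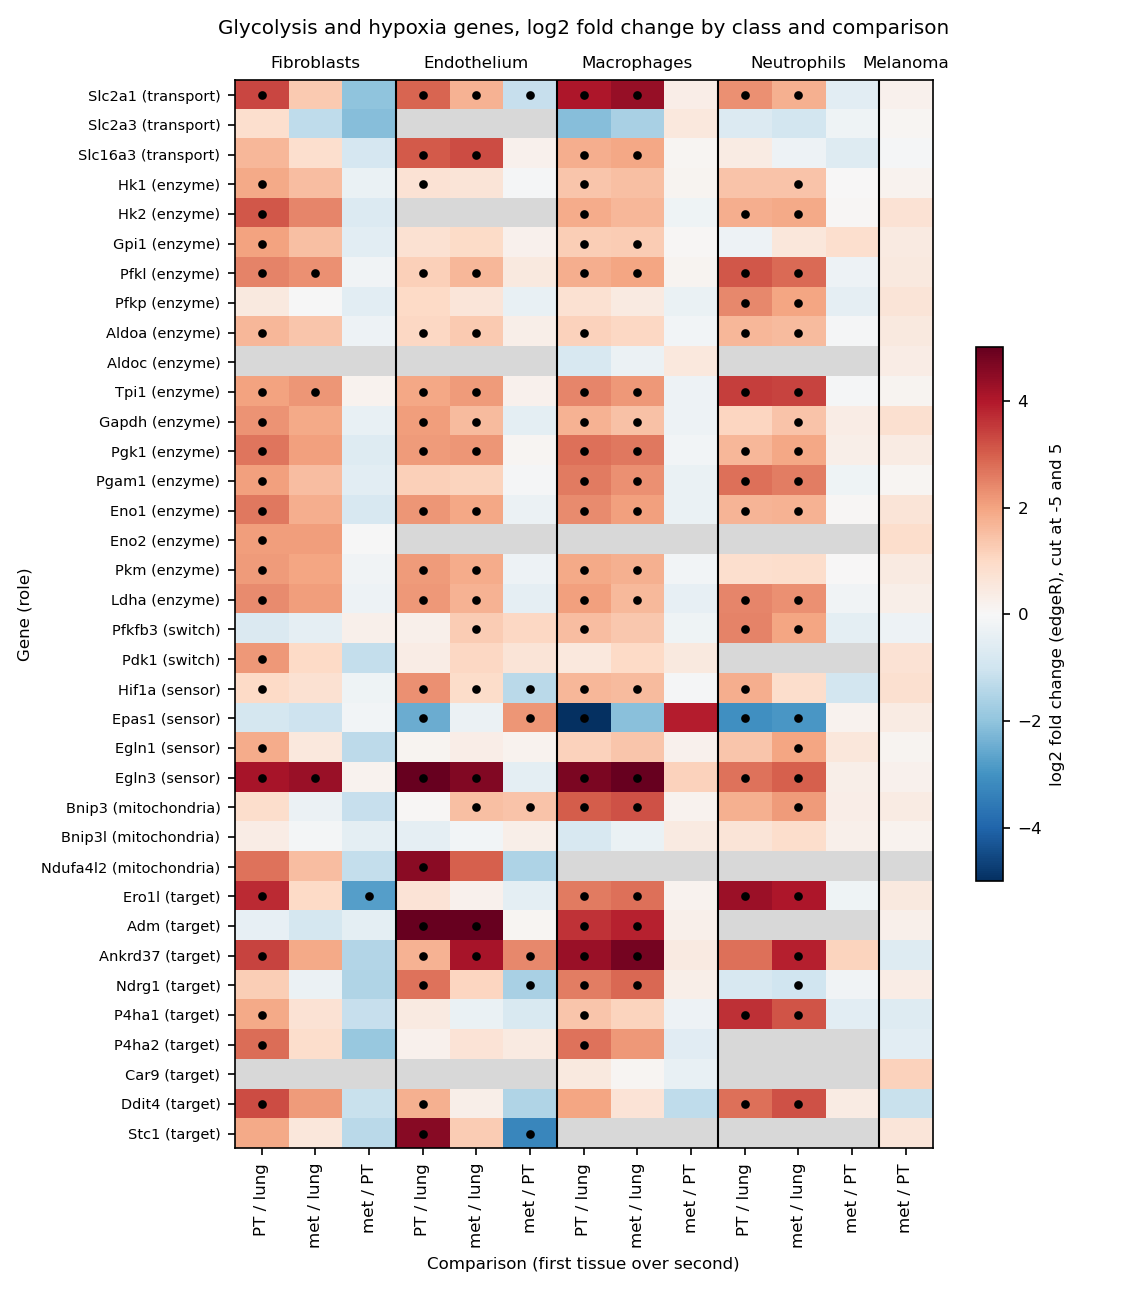
Log2 fold change of each of the 36 genes (rows, with role) in each cell class and comparison (columns), colored from blue (lower in the first tissue) to red (higher) and cut at 5 in either direction, where a dot marks an adjusted p below 0.05 and gray a gene too low to test. Columns against lung were mostly red, with 23 of 34 members higher in primary tumor fibroblasts, while columns of metastasis against primary tumor held few dots.

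Members were called against unchallenged lung in every host class, as the map of fold changes shows, whereas melanoma cells have no lung libraries to be compared with. Of 26 members tested in all 4 host classes, 9 were higher than lung in every one of them in primary tumors (0.815% of the 3560 genes tested in all 4) and 3 in metastases (0.337%). Between metastasis and primary tumor 8 member differences were called over the 5 cell classes together. Of these 7 were in endothelium, where all 7 were also called with a replicate block. Of all genes, 1142 were called in endothelium, against 128 in fibroblasts, 76 in macrophages, 8 in neutrophils and 1 in melanoma cells. The split by class is therefore read as no result about the members. These comparisons share their libraries, so that their values are given side by side.

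Endothelium showed the most differences between metastasis and primary tumor, in both directions. The class had 4 libraries per tissue, with 1619 cells in metastases, 553 in primary tumors and 4644 in lung. Of 31 members tested, Epas1, Bnip3 and Ankrd37 were higher in metastases and Slc2a1, Hif1a, Ndrg1 and Stc1 lower, 7 in all (11.8% of all genes called, 6.78% higher and 5.02% lower). Against lung, 16 members were higher in metastases and 0 lower (3.36% of all genes called, 2.72% higher and 0.641% lower), and 19 were higher and 1 lower in primary tumors (27.9% of all genes called, 14.0% higher and 13.8% lower). The median log2 fold change of the members was -0.07, 1.27 and 1.72 in the 3 comparisons, with that of all genes within 0.1 of 0. Of genes changed by 2 log2 units in simulated counts, the test recovered 83.5%, 90.0% and 87.5%.

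The 2 alpha subunits had opposite orders in endothelium. Epas1 read 1855, 3807, 1033 and 1032 CPM in metastases, 643, 325, 342 and 289 in primary tumors and 1809, 2429.8, 2722 and 2638 in lung. Every primary tumor library was below every library of the other tissues, while metastases and lung overlapped (2.22 ± 0.41 log2 in metastases over primary tumors, adjusted p = 0.0026, and -2.50 ± 0.41 in primary tumors over lung, adjusted p = 0.000393). Hif1a read 84.3, 102, 138 and 97.49 in metastases, 292, 263, 227 and 299 in primary tumors and 43.9, 59.3, 65.1 and 72.3 in lung. Its 3 groups did not overlap, with primary tumors highest and lung lowest (-1.36 ± 0.23, adjusted p = 0.00144, in metastases over primary tumors, 2.28 ± 0.23, adjusted p = 1e-05, in primary tumors over lung, and 0.92 ± 0.22, adjusted p = 0.034, in metastases over lung). Of the hydroxylases, Egln3 rose from 0.144 to 0.851 CPM in lung, 6 UMIs in all, to 1.52 to 14 in metastases (4.62 ± 0.68, adjusted p = 0.00155) and 6.78 to 20.0 in primary tumors (5.13 ± 0.68, adjusted p = 7.59e-05). Egln1 lay between 51.9 to 80.7 in primary tumors, 56.3 to 92.8 in metastases and 60.6 to 71.6 in lung, and was called in no comparison.

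The targets separated the tumors in different ways. Stc1, the secreted glycoprotein stanniocalcin 1, read 184, 305, 309 and 287 CPM in primary tumors but 21.1, 12.2, 40.6 and 31.1 in metastases and 7.71, 16.8, 13.3 and 11.1 in lung. Primary tumor libraries were all far above the rest, and metastases were not called over lung (-3.28 ± 0.35 in metastases over primary tumors, adjusted p = 0.000147, and 4.55 ± 0.35 in primary tumors over lung, adjusted p = 1.85e-06). Ankrd37, an ankyrin repeat protein, had the reverse order of tumors, with 121, 94.4, 100.2 and 107 in metastases, 39.9, 19.1, 9.93 and 18.1 in primary tumors and 5.70, 3.02, 7.41 and 11.9 in lung. Metastases were above all other libraries (2.38 ± 0.37 over primary tumors, adjusted p = 0.000879, and 4.10 ± 0.36 over lung, adjusted p = 0.000107), and primary tumors were called over lung as well (1.72 ± 0.40, adjusted p = 0.00489). Adm had the largest fold changes over lung in both tumors. It was represented by 5 UMIs in the 4 lung libraries together (0 to 0.505 CPM), against 15.8, 3.05, 99.5 and 78.5 CPM in metastases and 16, 20.4, 66.7 and 86.7 in primary tumors, where every library was above lung (7.42 ± 1.00, adjusted p = 0.00107, and 7.31 ± 1.01, adjusted p = 9.73e-05; with so few lung UMIs the fitted folds depend on the prior count). Adm was also abundant in the melanoma cells themselves, at 145 to 188 CPM in metastases and 121 to 149 in primary tumors, and with the melanoma profile subtracted it was still called over lung in both.

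Ndrg1, a stress-induced gene named for its downregulation by N-myc, read 204, 241, 196 and 152 CPM in primary tumors, 68.5, 42.6, 49.4 and 108 in metastases and 24.8, 26.2, 42.8 and 35.7 in lung. Primary tumors were above every other library (-1.63 ± 0.29 in metastases over primary tumors, adjusted p = 0.00223, and 2.73 ± 0.29 in primary tumors over lung, adjusted p = 1.42e-05). Bnip3, a mitophagy receptor, read 105, 99, 40.6 and 52.8 in metastases, 36, 26.8, 9.93 and 29.4 in primary tumors and 18.8, 22.9, 25.2 and 36.6 in lung. Metastases were above the other tissues (1.43 ± 0.37, adjusted p = 0.0216, over primary tumors and 1.504 ± 0.34, adjusted p = 0.0219, over lung), and its paralog Bnip3l was called nowhere. Ddit4 and Ndufa4l2, a paralog of a cytochrome oxidase subunit, were higher in primary tumors than in lung (1.79, adjusted p = 0.017, and 4.53, adjusted p = 0.000491), although Ndufa4l2 stayed low, at 5.10 to 47.9 CPM against 0.719 to 1.01. Ero1l, P4ha1 and P4ha2 were called in no comparison of endothelium, and Slc2a3, Hk2, Aldoc, Eno2 and Car9 were too low to test.

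**Figure D2:**
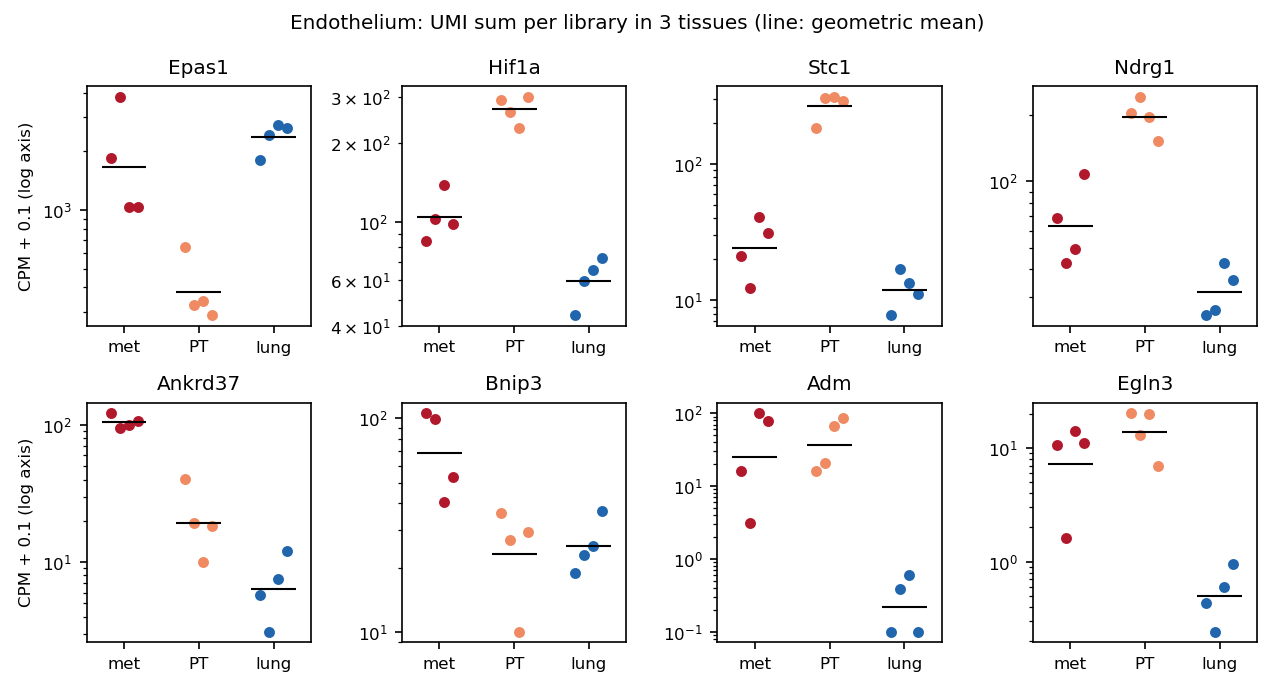
Level of 8 genes in endothelium as CPM + 0.1 on a log axis, with 1 point per library (4 each of metastasis, met; primary tumor, PT; and unchallenged lung) and a line at the geometric mean. Epas1 was lowest in primary tumors and Hif1a, Stc1 and Ndrg1 highest there, Ankrd37 and Bnip3 were highest in metastases, and Adm and Egln3 were above lung in every tumor library.

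Both of the 2 transporters and most of the 12 enzymes tested in endothelium were called higher than lung in both tumors. In metastases the calls of Aldoa, Tpi1, Gapdh, Eno1, Pkm and Ldha were lost with a replicate block and with the melanoma profile subtracted. Slc2a1 read 59.9, 37, 31.2 and 61.1 CPM in primary tumors, 5.27, 18.3, 27.3 and 21.7 in metastases and 6.03, 6.04, 7.07 and 7.65 in lung. It was called in all 3 comparisons (2.92 ± 0.32, adjusted p = 1.91e-05, in primary tumors over lung, 1.76 ± 0.33, adjusted p = 0.00748, in metastases over lung and -1.16 ± 0.32, adjusted p = 0.0279, between the tumors), although the metastasis pool of replicates 1-3 lay below every lung library. Slc16a3, the lactate exporter MCT4, was higher than lung by 3.26 ± 0.65 in metastases (adjusted p = 0.0115) and 3.05 ± 0.67 in primary tumors (adjusted p = 0.00339). Of 12 enzymes tested, 9 were higher than lung in primary tumors and 8 in metastases, and none differed between the tumors. Pgk1 read 94.8, 97.4, 455 and 172 in metastases, 159.8, 164, 182 and 279 in primary tumors and 46.9, 46.6, 50.0 and 53.6 in lung (2.22 ± 0.44, adjusted p = 0.0111, and 2.12 ± 0.44, adjusted p = 0.00212). All tumor libraries were above lung for Pgk1, and replicate 5 of the metastases stood highest. Pfkfb3, whose product activates phosphofructokinase, was higher than lung in metastases (1.27 ± 0.32, adjusted p = 0.0395) and not called in primary tumors (0.24 ± 0.33, adjusted p = 0.631). The other calls over lung were Pfkl, Aldoa, Tpi1, Gapdh, Eno1, Pkm and Ldha in both tumors, by 1.03 to 2.20 log2 units, and Hk1 in primary tumors (0.72).

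The metastases varied most in the enzymes of endothelium. Pfkl read 36.9, 54.8, 119 and 103 CPM in metastases, 39.9, 52.3, 52.5 and 82.2 in primary tumors and 28.5, 28.3, 25.4 and 30.6 in lung, and every tumor library was above lung (1.66 and 1.18 log2). Tpi1 read 89.6, 89.8, 532 and 211 in metastases, 216, 145, 194 and 264 in primary tumors and 60.0, 71.5, 49.7 and 51.9 in lung, again without overlap (2.14 and 1.91). Pkm, the last enzyme before pyruvate is released, read 132, 172, 906 and 402 in metastases, 391, 470.5, 448 and 643 in primary tumors and 139, 113, 117 and 115 in lung (1.87 and 2.13), with the metastasis pool inside the lung range. For Ldha the values were 100.1, 178, 589.8 and 268 in metastases, 459, 423, 308 and 392 in primary tumors and 130.3, 110.3, 66.8 and 69.7 in lung (1.73 and 2.17), and the metastasis pool again lay in the lung range. For Eno1 they were 68.5, 57.9, 329 and 195 in metastases, 199.7, 131, 184 and 306 in primary tumors and 63.3, 57.7, 39.6 and 30.6 in lung (1.92 and 2.20), with replicate 4 of the metastases in the lung range. In these enzymes replicate 5 was the highest metastasis and the pool or replicate 4 the lowest, and the metastases spread more widely than the primary tumors. Gapdh was at 126 to 259 in lung, 607 to 877 in primary tumors and 253 to 1029.7 in metastases, which overlapped both. Aldoa was at 137 to 272 in lung, 294 to 433 in primary tumors and 274 to 767 in metastases. Hk1 was at 38.7 to 56.3 in lung and 72.4 to 79.9 in primary tumors. Gpi1, Pfkp and Pgam1 were the enzymes not called in either tumor.

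Both the makeup of the endothelium and melanoma RNA moved with these differences. Primary tumor endothelium was 98.4% cells of 1 blood endothelial cluster led by Vwf, which made up 41.4% in metastases and 16.1% in lung. Most lung cells (62.7%) lay in a cluster led by Npr3, Glp1r and Gpihbp1, which is named here by its genes. The naming rule matched it to the lymphatic list, with 5 lymphatic markers raised, although 9 blood endothelial markers were raised in it as well. Within the Vwf cluster alone, 3 members differed between the tumors (Epas1, Ankrd37 and Stc1; 3.74% of all genes), 17 between metastasis and lung (8.63%) and 19 between primary tumor and lung (21.8%). Within it the metastasis over primary tumor difference of Bnip3 was 0.13 log2, of Slc2a1 -0.37, of Hif1a -0.92 and of Ndrg1 -0.79, none of them called. In replicate 5 of the metastases the melanoma markers reached 31.5% of the level in sorted melanoma cells. That library was the largest, with 1181 of the 1619 metastasis cells that the cluster shares pool. The calls in metastases over lung lost with the melanoma profile subtracted were those of Aldoa, Tpi1, Gapdh, Eno1, Pkm, Ldha, Hif1a and Bnip3, and those lost with a replicate block were the same enzymes, Hif1a and Pfkfb3. The block also ended the call of Hk1 in primary tumors. The count of members over lung in metastases was 6 without that library, 22 without replicate 4, 9 with the melanoma profile subtracted and 8 with a replicate block, and between the tumors it was 12 without replicate 5. The share of all genes called under these settings is not given, so that a change particular to the members cannot be read from them.

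Fibroblasts had the highest median fold change of members in primary tumors over lung among the 4 host classes, with 2378 cells in 3 primary tumor libraries (replicates 4, 5 and 6), 2411 in 3 lung libraries and only 486 in 2 metastasis libraries (replicates 5 and 6). In primary tumors 23 of 34 members tested were higher than in lung and 0 lower, with a median log2 fold change of 2.04 (12.2% of all genes called, 5.32% higher and 6.85% lower). In metastases 3 were higher than in lung (median 1.36, 1.08% of all genes called, 0.943% higher and 0.135% lower) and 1 was lower than in primary tumors (median -0.58, 1.15% of all genes called, 0.952% higher and 0.198% lower). In simulated counts the test recovered 39.0% of genes changed by 2 log2 units between primary tumor and lung and 0 of 200 in either comparison with metastases, where 128 genes were called between the tumors and 120 over lung in the measured counts.

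By role, 13 of 14 enzymes, 3 of 4 sensors and 5 of 8 targets tested were higher in primary tumor fibroblasts than in lung. Ero1l, the oxidase that forms disulfide bonds in the endoplasmic reticulum, read 221, 445 and 435 CPM in primary tumors, 58.8 and 49 in metastases and 27, 32.7 and 27 in lung. The 3 tissues did not overlap, and the primary tumor was higher than lung (3.73 ± 0.39, adjusted p = 0.00178) and than metastases, where Ero1l was lower by the only call between the tumors (-2.75 ± 0.43, adjusted p = 0.0234). The collagen prolyl hydroxylases P4ha1 and P4ha2, which act in the same compartment, were also higher in primary tumors than in lung. P4ha2 read 79.1, 146 and 130.4 in primary tumors, 31.6 and 31.5 in metastases and 27, 21.8 and 10.7 in lung (2.79 ± 0.41, adjusted p = 0.00419, and -1.91 ± 0.45, adjusted p = 0.0877, for metastases over primary tumors), and P4ha1 read 316, 239 and 227 in primary tumors, 97.6 and 147 in metastases and 120.1, 62.5 and 52.3 in lung (1.89 ± 0.37, adjusted p = 0.013, over lung). For both genes every primary tumor library was above all others, and the difference between the tumors missed the threshold.

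Slc2a1 read 88, 90.7 and 195 CPM in primary tumor fibroblasts, 28.3 and 35 in metastases and 9.0, 3.97 and 21.1 in lung. The groups did not overlap, with a call for primary tumor over lung (3.34 ± 0.55, adjusted p = 0.00723) and none between the tumors (-2.03 ± 0.61, adjusted p = 0.195). Egln3 read 14.2, 29.8 and 29.4 in primary tumors, 23.3 and 35 in metastases and 0, 0 and 2.19 in lung. It was higher than lung in both tumors (4.13 ± 0.68, adjusted p = 0.00723, and 4.30 ± 0.74, adjusted p = 0.0314), and the tumors overlapped. The other members higher in metastases than in lung were Pfkl, at 104 and 80.5 against 21, 15.9 and 22.6 (2.30 ± 0.37, adjusted p = 0.0314), and Tpi1 (2.19 ± 0.41, adjusted p = 0.0411), which read 534 and 315 in metastases, 333, 285 and 509 in primary tumors and 96, 100.1 and 99.9 in lung. Ankrd37 (3.37 ± 0.54, adjusted p = 0.00646), Ddit4 (3.25 ± 0.47, adjusted p = 0.00419) and Hk2 (3.1 ± 0.83, adjusted p = 0.0404), the inducible hexokinase, completed the larger rises in primary tumors. Pdk1, which closes pyruvate dehydrogenase, Hif1a and Egln1 rose by 2.16, 0.98 and 1.84, and the remaining enzymes by 1.67 to 2.67. Pfkp was the enzyme not called (0.50 ± 0.36), and Adm, which rose in endothelium, was at 243, 105 and 28.4 CPM in lung fibroblasts and 49.8, 87.9 and 114 in primary tumors, with overlap between them.

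Several differences of similar size in fibroblasts were not called. Hk2 read 77.4, 152 and 164 CPM in primary tumors, 62.7 and 112 in metastases and 0, 1.98 and 34.3 in lung, where the last library was nearest to the tumors (2.43 ± 0.90 for metastases over lung, adjusted p = 0.19). Slc2a3 read 20.5, 50.1 and 47.3 in primary tumors, 4.44 and 21 in metastases and 6.00, 2.97 and 49.1 in lung, also with its highest lung value in that library (-2.12 ± 1.14 for metastases over primary tumors, adjusted p = 0.617). Ankrd37, in contrast, did not overlap between tissues, at 34.7, 25.7 and 44.1 in primary tumors, 8.88 and 21 in metastases and 0, 2.97 and 4.62 in lung. Among the enzymes Pgk1 read 317, 294 and 595 in primary tumors, 312 and 203 in metastases and 54, 46.6 and 95.8 in lung (2.67, adjusted p = 0.00795, and 2.04, adjusted p = 0.0789, over lung). Ldha read 468, 373 and 609 in primary tumors, 499 and 297 in metastases and 84, 71.4 and 138 in lung (2.37, adjusted p = 0.00915, and 2.10, adjusted p = 0.0611). For both, the metastases lay above lung in each library and passed no threshold. Gapdh was at 150.1 to 259 in lung and 583 to 1323 in primary tumors, Pkm at 128 to 186 in lung and 476 to 882 in primary tumors, and Eno1 at 39.7 to 102 in lung and 238 to 657 in primary tumors. Ddit4 was at 3.00 to 12.6 in lung, 30.0 to 42 in metastases and 54.1 to 96 in primary tumors, and Egln1 was at 42 to 60.3 in lung, 56 to 87.6 in metastases and 124 to 223 in primary tumors. Bnip3, Bnip3l and Ndufa4l2 were called in no comparison of fibroblasts, and Ndufa4l2 was at 4.62 to 72 in lung and 81.2 to 477 in primary tumors, with wide spread in both.

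The fibroblasts of the tissues lay in different clusters. In lung 98.2% were in a cluster led by Inmt and Clec3b, in primary tumors 61.3% in one led by Lum and Apod and 38.7% in one led by Col1a1 and Meg3, and in metastases 35.0% in the Inmt cluster and 62.4% in the Col1a1 cluster. These shares pool cells over libraries and describe mainly the largest. Replicate 6 held 2171 of 2417 cells in lung and 2050 of 2395 in primary tumors, and replicate 5 held 433 of 503 in metastases. Melanoma markers reached 26.6% of the melanoma cell level in replicate 6 of the primary tumors. The number of members called in primary tumors over lung was 12 without that library, 22 with the melanoma profile subtracted and 13 without cells in which those markers reached 3 UMIs. These counts stand without the share of all genes called, so that no change particular to the members can be read from them. The subtraction ended the calls of Tpi1 in metastases and Hif1a in primary tumors, and a replicate block ended the same calls and that of Aldoa in primary tumors.

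**Figure D3:**
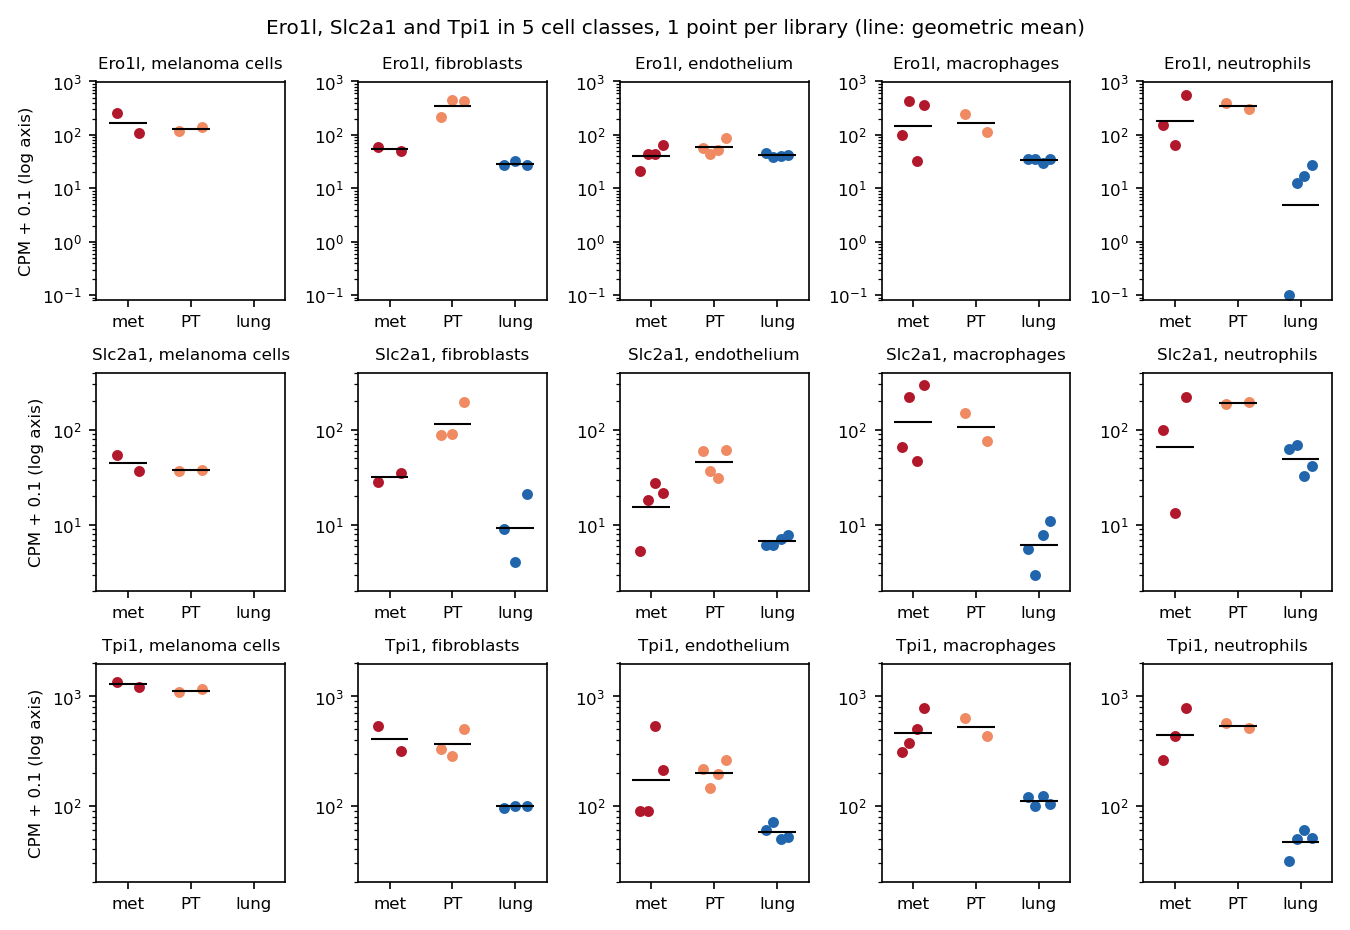
Ero1l, Slc2a1 and Tpi1 (rows) in 5 cell classes (columns) as CPM + 0.1 on a log axis, with 1 point per library of metastasis (met), primary tumor (PT) and unchallenged lung and a line at the geometric mean; melanoma cells have no lung libraries. Ero1l was high in all primary tumor fibroblast libraries (221 to 445 CPM) and not in metastases (49 and 58.8), while Tpi1 was above lung in every host class and tumor library.

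In macrophages members were higher than in lung in both tumors, and no member was called between the tumors. The class had 441 cells in 4 metastasis libraries, 2636 in 2 primary tumor libraries (replicates 1-3 and 4) and 7337 in 4 lung libraries. Against lung 18 of 33 members were higher in metastases (2.05% of all genes called, 1.58% higher and 0.472% lower) and 24 were higher and 1 lower in primary tumors (16.1% of all genes called, 6.32% higher and 9.78% lower). Between metastasis and primary tumor 0 of 33 were called (0.678% of all genes called, 0.588% higher and 0.0892% lower), with 1 member at an unadjusted p below 0.05 and 1 called by DESeq2. With a replicate block, or with the melanoma profile subtracted, 1 was called, and the share of all genes called there is not given. Of genes changed by 2 log2 units in simulated counts, 63.5% were recovered between the tumors, 71.0% in metastases over lung and 72.0% in primary tumors over lung. The member called by DESeq2 was Epas1, at 34.6, 12.9, 94.6 and 42.7 CPM in metastases, 3.14 and 2.46 in primary tumors and 36, 156, 294 and 319.7 in lung. Its primary tumor libraries lay below all others (-6.02 ± 0.88 against lung, adjusted p = 0.000856, and 3.94 ± 0.86 for metastases over primary tumors, adjusted p = 0.058).

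Slc2a1 had among the largest folds of tumor macrophages over lung, with 66.1, 219.7, 47.3 and 297 CPM in metastases, 149.7 and 76.6 in primary tumors and 5.43, 2.89, 7.77 and 10.8 in lung. Every tumor library was above every lung library (4.36 ± 0.56, adjusted p = 0.00149, and 4.03 ± 0.58, adjusted p = 0.000801). Bnip3 read 92.7, 381, 28.4 and 254 in metastases, 195 and 94.2 in primary tumors and 14.9, 27.5, 18.9 and 21.4 in lung (3.19 ± 0.54, adjusted p = 0.00815, and 3.01 ± 0.58, adjusted p = 0.00387). Metastasis replicates 4 and 6 were high and replicate 5 was close to lung. The same libraries were high and low for Ero1l, at 98.7, 427, 33.1 and 361 in metastases, 244 and 115 in primary tumors and 36, 34.7, 29.1 and 34.6 in lung (2.75 ± 0.55, adjusted p = 0.0245, and 2.59 ± 0.59, adjusted p = 0.0101). Egln3 read 32.6, 155, 14.2 and 198 in metastases, 60.1 and 22.1 in primary tumors and 0, 0, 0.486 and 2.78 in lung (5.85 ± 0.84, adjusted p = 0.00287, in metastases). Ankrd37 read 33.1, 123, 18.9 and 132 in metastases, 70.7 and 28.5 in primary tumors and 0, 2.89, 1.46 and 4.14 in lung (4.78 ± 0.67, adjusted p = 0.0028, in metastases). Neither overlapped lung in any tumor library. In primary tumors these 2 genes rose by 4.71 and 4.32 log2 units.

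Of 14 enzymes tested in macrophages, 9 were higher than lung in metastases and 12 in primary tumors. Pgk1 read 306, 278, 359 and 899 CPM in metastases, 589 and 348 in primary tumors and 61.1, 70.8, 68.5 and 109 in lung (2.64 ± 0.40, adjusted p = 0.00447, and 2.77 ± 0.44, adjusted p = 0.00131). Pgam1, a mutase of the lower path, read 264, 381, 411 and 624 in metastases, 588 and 366 in primary tumors and 74.7, 95.4, 76.8 and 108 in lung (2.29 ± 0.29, adjusted p = 0.00149, and 2.60 ± 0.33, adjusted p = 0.000359). Both genes were above lung in every tumor library. Hif1a rose by 1.57 ± 0.26 in metastases and 1.65 ± 0.28 in primary tumors (adjusted p = 0.0071 and 0.00211), and Slc16a3 by 1.94 and 1.83. Adm and Ndrg1 were higher than lung in both tumors (3.86 and 3.61 for Adm, 2.87 and 2.57 for Ndrg1), and P4ha1, P4ha2, Pfkfb3, Hk1, Hk2 and Aldoa were called in primary tumors and not in metastases, although their difference between the tumors was not called either. Ddit4, at 13, 45.2, 0 and 17.5 in metastases and 57.4 and 17.1 in primary tumors, had the next largest difference between the tumors after Epas1 (-1.27 ± 0.76, adjusted p = 0.715), and its groups overlapped. Slc2a3, Aldoc, Bnip3l, Car9, Pdk1, Pfkp, Egln1 and Ddit4 were called in no comparison.

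Other enzymes of macrophages were as separate from lung. Tpi1 read 310.2, 375, 506 and 781 CPM in metastases, 639 and 437 in primary tumors and 122, 99.7, 122 and 105 in lung (2.18 and 2.43). Eno1 read 302, 368, 478 and 697 in metastases, 787 and 279 in primary tumors and 95.7, 117, 126 and 128 in lung (2.03 and 2.36). Ldha read 447, 511, 638 and 864 in metastases, 935 and 571 in primary tumors and 285, 162, 198 and 168 in lung (1.63 and 2.05). In each of them the lowest tumor library was above the highest lung library. Pkm was at 201 to 254 in lung, 461 to 1119 in metastases and 605 to 906 in primary tumors, Gapdh at 432 to 741 in lung, 1196 to 2254 in metastases and 1115 to 2339.9 in primary tumors, and Pfkl at 18.5 to 28.9 in lung, 49.6 to 122 in metastases and 55.7 to 88 in primary tumors. Hif1a read 170.4, 239, 123 and 270.0 in metastases, 217 and 170.1 in primary tumors and 76, 59.2, 62.7 and 78.9 in lung, without overlap. Hk2 was not separated in the same way, with 64.1, 317, 52 and 202 in metastases, 138 and 171 in primary tumors and 55, 54.9, 33 and 50.3 in lung, where the metastases ran from the lung range upward.

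The macrophages of the tissues also differed in kind. In lung 91.5% lay in a cluster led by Chil3 and Ear1, genes of alveolar macrophages, whereas in primary tumors 100.0% and in metastases 67.1% lay in one led by C1qa and C1qb. These shares pool cells over libraries, and replicate 6 held 6665 of the 7337 lung cells, so that the lung share describes mainly that library. With the Chil3 cluster left out, 22 of 28 members were called in metastases over lung (7.51% of all genes) and 19 in primary tumors over lung (8.83%). With the melanoma profile subtracted 15 were called in metastases, where Gpi1, Gapdh and Adm were lost, and 24 in primary tumors, where Hk1 was lost. A replicate block ended the call of Aldoa in primary tumors. The share of all genes called with the subtraction is not given, so that no change particular to the members can be read from its counts. Without replicate 1-3 the single primary tumor library left gave 8 calls over lung, under the assumption that it varied like the other groups.

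Neutrophils had 355 cells in 3 metastasis libraries (replicates 1-3, 5 and 6), 287 in 2 primary tumor libraries (replicates 1-3 and 4) and 1541 in 4 lung libraries, and the smallest held 27 cells. Of 28 members tested, 20 were higher and 2 lower in metastases than in lung (13.7% of all genes called, 11.2% higher and 2.47% lower), and 16 were higher and 1 lower in primary tumors (6.91% of all genes called, 5.95% higher and 0.958% lower). None was called between the tumors (0.202% of all genes called, 0% higher and 0.202% lower), none by DESeq2 and 1, Hif1a, at an unadjusted p below 0.05. In simulated counts 75.5% of genes changed by 2 log2 units were recovered there, 85.0% in metastases over lung and 80.5% in primary tumors over lung. The largest differences between the tumors were those of Ankrd37 (1.11 ± 0.74), Hif1a (-0.92 ± 0.39), at 152, 106 and 208 CPM in metastases and 265 and 341 in primary tumors, and Gpi1 (0.83 ± 0.39), at 286, 634 and 569 and 265 and 297.

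Tpi1, the isomerase of the triose step, read 259.9, 436 and 784 CPM in metastases, 571 and 515 in primary tumors and 31.1, 49.7, 60.1 and 51.3 in lung. All tumor libraries were above lung by a wide gap (3.39 ± 0.37, adjusted p = 0.000118, and 3.46 ± 0.40, adjusted p = 0.000185). Ero1l read 152, 66 and 571 in metastases, 398 and 305 in primary tumors and 0, 12.4, 17 and 27.1 in lung and was likewise above lung in each tumor library (4.03 ± 0.56, adjusted p = 0.000526, and 4.26 ± 0.60, adjusted p = 0.000924). P4ha1 read 34.7, 26.4 and 175 in metastases, 186 and 124 in primary tumors and 15.5, 12.4, 8.11 and 18.4 in lung (3.13 ± 0.55, adjusted p = 0.00258, and 3.66 ± 0.59, adjusted p = 0.00187). Of these 3 genes Tpi1 and Ero1l had metastasis replicate 6 as the highest library, and P4ha1 the first primary tumor library. Ankrd37 read 56.3, 13.2 and 101 in metastases and 0, 24.9, 4.42 and 1.93 in lung (3.88 ± 0.68, adjusted p = 0.00258), where the values of replicate 5 in metastases and replicate 4 in lung overlapped.

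Among 13 enzymes tested in neutrophils 11 were higher than lung in metastases and 9 in primary tumors. Pfkl, the liver type of phosphofructokinase, rose by 2.85 ± 0.46 and 3.11 ± 0.52 (adjusted p = 0.00166 and 0.0023), Pgam1 by 2.55 and 2.77, and Ldha by 2.27 and 2.45. The remaining enzymes called rose by 1.42 to 2.41. Of the transporters, Slc2a1 was called in both tumors (1.77 ± 0.46, adjusted p = 0.0215, and 2.28 ± 0.50, adjusted p = 0.0149), while Slc2a3 read 234, 158 and 289 in metastases, 199 and 317 in primary tumors and 419, 354, 601 and 488 in lung and was not called (-0.90 ± 0.29, adjusted p = 0.0561). Every tumor library was below every lung library for Slc2a3. Epas1 was lower in both tumors, at 0, 26.4 and 6.88 in metastases, 0 and 6.82 in primary tumors and 46.6, 87, 49.4 and 52.2 in lung (-2.91 ± 0.70, adjusted p = 0.0148, and -3.08 ± 0.82, adjusted p = 0.0363). Ndrg1 was lower in metastases than in lung (-0.99 ± 0.29, adjusted p = 0.0365), the reverse of its direction in macrophages. Egln3, Ddit4 and Pfkfb3 were higher than lung in both tumors (3.01 and 2.73, 3.17 and 2.75, 1.97 and 2.47). Egln1 and Bnip3 were called in metastases (1.97 and 2.11) and Hif1a in primary tumors (1.82).

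Enzymes and targets of neutrophils differed in which tumor library lay nearest to lung. Pgam1 read 243, 449 and 595 CPM in metastases, 756 and 338 in primary tumors and 62.1, 106, 82.2 and 71.6 in lung, and Ldha read 308, 581 and 932 in metastases, 743 and 689 in primary tumors and 264, 137, 105 and 119 in lung. Both were above lung in every tumor library, and the metastasis pool was the lowest of these. Pfkl read 39, 52.8 and 129 in metastases, 173 and 75 in primary tumors and 15.5, 18.7, 14 and 8.70 in lung, and Pfkp, the platelet type, read 52, 0 and 220.1 in metastases, 159 and 159 in primary tumors and 31.1, 56, 24.7 and 34.8 in lung. No UMI of Pfkp was found in metastasis replicate 5, where 1 UMI stands for about 13.2 CPM, and high in replicate 6. Pkm and Gpi1 were the enzymes called in neither tumor, at 516 to 621 and 321 to 435 in lung, 546 to 1234 and 286 to 634 in metastases and 873 to 1048 and 265 to 297 in primary tumors. Egln3 read 95.3, 13.2 and 289 in metastases, 305 and 58 in primary tumors and 62.1, 12.4, 22.5 and 17.4 in lung, with metastasis replicate 5 and the second primary tumor library inside the lung range, and Ddit4 read 30.3, 13.2 and 168 in metastases, 66.4 and 69.9 in primary tumors and 0, 18.7, 11.1 and 10.6 in lung, with metastasis replicate 5 inside it.

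A small tumor library of neutrophils was the one with most melanoma RNA. Replicate 5 of the metastases held 41 cells, and its melanoma markers were at 34.1% of the melanoma cell level, against 4.75% in the primary tumor pool of 33 cells. With the melanoma profile subtracted 17 members were called in metastases over lung and 14 in primary tumors over lung, and with a replicate block 16 and 8. The subtraction ended the calls of Hk1, Aldoa, Gapdh, Eno1 and Ndrg1 in metastases and of Pgk1, Eno1 and Epas1 in primary tumors. The block ended those of Slc2a1, Pfkp, Gapdh, Epas1, Bnip3 and Ndrg1 in metastases and of Slc2a1, Hk2, Pfkp, Pgk1, Eno1, Hif1a, Epas1, Egln3 and Ddit4 in primary tumors. Without replicate 6 of the metastases 6 members were called in metastases over lung. For these alternatives the share of all genes called is not given, so that no change particular to the members can be read from the counts.

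Some members exceeded the melanoma cells themselves, as many genes of another cell type do. Of members tested in the class, those higher in each primary tumor library than in any sorted melanoma library were 12 of 28 in neutrophils (45.4% of all genes tested there), 10 of 34 in fibroblasts (34.4%), 8 of 33 in macrophages (34.1%) and 6 of 31 in endothelium (32.6%). In metastases they were 4, 9, 4 and 5 (38.7%, 35.6%, 20.1% and 33.2% of all genes). These counts lie below the share of all genes and are read as no result about the members. Ndrg1 exceeded melanoma cells in each class and tumor, at 4.07 to 24.2 CPM in the melanoma libraries. Of the 15 enzymes of the glycolytic path, Hk2 alone did so in any. The share of a class's UMIs from the 36 genes was 0.191% to 0.247% in lung fibroblasts, 0.593% to 0.964% in primary tumors and 0.402% to 0.592% in metastases. In macrophages it was 0.274% to 0.316% in lung, 0.605% to 1.05% in primary tumors and 0.560% to 1.24% in metastases, and in neutrophils 0.363% to 0.464%, 0.793% to 1.10% and 0.551% to 1.35%. In these 3 classes no tumor library overlapped lung, whereas endothelial metastases began below the lung maximum, at 0.415% to 0.776% against 0.376% to 0.427%, and primary tumors were at 0.450% to 0.577%. In endothelium the 4 sensors, among them Epas1, took 0.191% to 0.286% in lung. They took 0.123% to 0.397% in metastases and 0.0657% to 0.101% in primary tumors. The 15 enzymes alone did not overlap lung, at 0.0900% to 0.131% there, 0.133% to 0.568% in metastases and 0.277% to 0.390% in primary tumors. The plot of share against melanoma markers shows both quantities per library. Melanoma markers moved with tumor origin in every class, and their part in the share was not tested, since the subtraction was applied to the calls and not to the share.

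**Figure D4:**
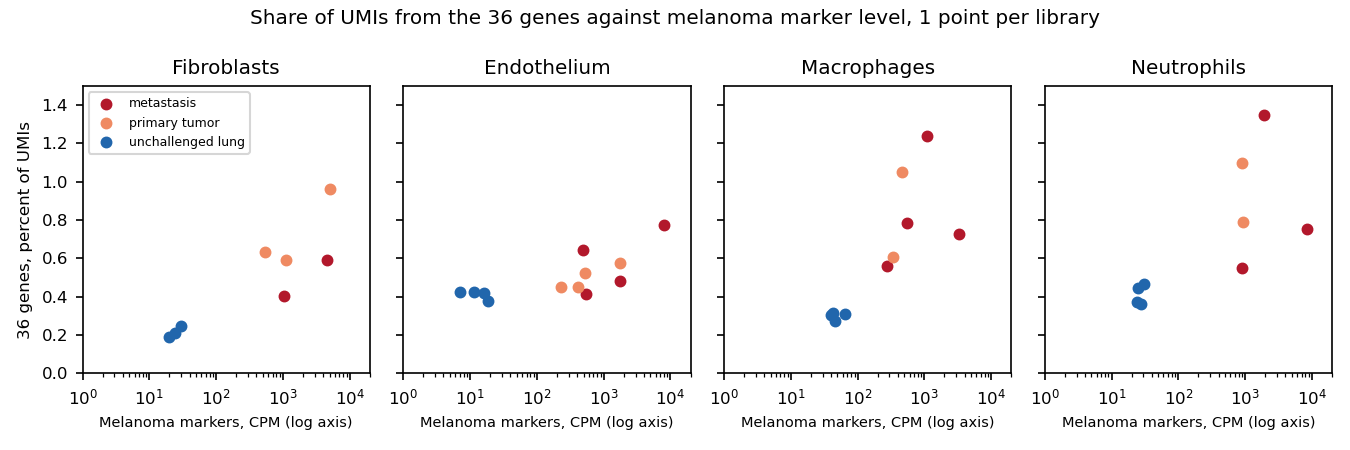
Percent of a class's UMIs that came from the 36 genes (vertical) against the summed CPM of 10 melanoma markers other than Cd63 (horizontal, log axis), with 1 point per library in fibroblasts, endothelium, macrophages and neutrophils. Lung libraries sat at the left, with marker sums of at most 65.9 CPM, and all tumor libraries were at 230 CPM or more.

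Related genes outside the 36 were counted in the same fits. The subtraction of the melanoma profile, the replicate block and the other alternatives were followed gene by gene for the members only. The part of melanoma RNA in the calls of these related genes was therefore not tested. Of 24 further hypoxia genes, 7 of 22 tested were higher and 1 lower in primary tumor fibroblasts than in lung (5.32% and 6.85% of all genes), the higher ones including Ak4, a mitochondrial adenylate kinase (4.72), and Mif, a cytokine (3.19). In macrophages 7 of 20 were higher and 2 lower in primary tumors (6.32% and 9.78% of all genes), and 6 higher in metastases (1.58%), with Ak4 at 5.44 and 5.75. In neutrophils 7 of 13 were higher in metastases and 7 in primary tumors than in lung (11.2% and 5.95% of all genes), with Hilpda, a lipid droplet protein, at 6.27 in metastases and 6.12 in primary tumors. Mif was higher than lung in both tumors in all 4 host classes. In endothelium 2 of 18 were higher and 1 lower in metastases than in primary tumors, 4 were higher in metastases than in lung (2.72% of all genes), and 4 were higher and 2 lower in primary tumors than in lung. The 3 of 18 and 6 of 18 called in the comparisons with primary tumors stand beside 11.8% and 27.9% of all genes called there, so that these counts are read as no result about the list. Vegfa, the vascular growth factor, and Hilpda were higher in metastases than in primary tumors (3.59 ± 0.58, adjusted p = 0.00111, and 2.40 ± 0.39, adjusted p = 0.0013), and both were lower in primary tumors than in lung (-3.79 ± 0.57, adjusted p = 0.000208, and -3.01 ± 0.40, adjusted p = 7.07e-05), while Wsb1, part of a ubiquitin ligase, was lower in metastases than in primary tumors (-0.80 ± 0.24, adjusted p = 0.0388). Angptl4, an inhibitor of lipoprotein lipase, rose in primary tumors (4.15) and in metastases (2.81). In the melanoma cells 0 of 22 were called.

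The 20 remaining isoforms and regulators of glycolysis, of which 3 to 15 could be tested per class, held no gene called higher in any comparison. With 0% to 14.0% of all genes called higher there and so few tested, this is read as no result about the list. Pdk4, which restrains pyruvate oxidation in fasting, was lower in primary tumors than in lung in fibroblasts (-3.92 ± 0.92, adjusted p = 0.0247) and macrophages (-7.67 ± 1.41, adjusted p = 0.00369). Also lower were the monocarboxylate transporter Slc16a7 in primary tumor fibroblasts (-4.25) and the muscle enolase Eno3 in macrophages of both tumors (-1.52 and -2.38). Of 21 genes of the citrate cycle and respiratory chain, at most 3 were called in any comparison (3 of 21 in endothelium of primary tumors over lung, where 14.0% of all genes were higher) except neutrophils of metastases over lung, where 6 of 15 tested were higher (11.2% of all genes), led by Atp5b (1.78). Of 17 genes that respond to tissue dissociation, 5 were lower in endothelium of primary tumors than of lung (13.8% of all genes), 3 were lower and 1 higher in fibroblasts (6.85% and 5.32%), 2 were higher in macrophages (6.32%) and 3 of 16 tested were higher in neutrophils (5.95%), and in each other comparison at most 2 were called in either direction.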

How the data were processed

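UMI counts per gene and cell were taken as deposited. The authors made these counts from 10x Genomics 3' libraries (v3.1 chemistry) with Cell Ranger 6.1.1 on GRCm38 (mm10), and removed cells of extreme mitochondrial or ribosomal share or number of detected genes with Seurat 3.2.2. The sources used here do not give the annotation. A log-normalized copy of the same cells was not used.

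The 110283 barcodes came under 24 library names, and 5 names (9924 barcodes) that repeated another were removed. Libraries were grouped by the labels, which list replicates 1-3 of each tumor as 1 sample, called a pool here. Its cells came under several library names, 1 per mouse, which were summed. The spread between these mice therefore did not enter the tests. The members, the further gene lists and the marker lists were chosen with earlier results of these data known, and the rule that names clusters was tightened after clusters had been seen. All 36 members are named. Values per library are given for members on which a result turns and for most of those with the 3 largest fold changes of a comparison, and other members are given by fold, range or count. From each further list at most 3 genes called are named in a comparison, apart from Mif, which was singled out after its values were seen.

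Cells were clustered with Seurat 5.3.0 (2000 variable genes, 17 principal components, 20 neighbors, resolution 0.5) without the 80 listed glycolysis and hypoxia genes. A cluster took a name when 3 markers of a cell type had a log2 fold of at least 1 and were found in at least 10% of its cells, unless its 10 leading genes went against that name. No doublet caller was run.

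UMIs were summed per library and class (at least 20 cells), filtered with filterByExpr, scaled by TMM and tested with the quasi-likelihood test of edgeR 4.0.16 (R 4.3.3) in 1 fit over the tissues. P-values were Benjamini-Hochberg adjusted over all genes tested. Errors of log2 fold changes are the absolute fold change divided by the square root of the F statistic of its test. They approximate a standard error and, like the fold, depend on the prior count where a gene is near 0. DESeq2 1.42.0 was an alternative, and an adjusted p that it left missing was not counted as a call. Tests were run on simulated data with 200 changed genes, and the share recovered is given for each class. Reads of near-identical copies and pseudogenes (Gapdh, Eno1, Aldoa, Pgk1, Tpi1, Ldha, Pgam1) may be split by the counting, which leaves the levels of these genes uncertain. Per-sample columns that could not be assigned to a sample numbered 0.

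Pairing was checked because, by the library names, in replicate 5 and again in replicate 6 both tumors came from the same mouse and the pools of replicates 1-3 shared some mice, whereas replicate 4 and the lungs did not. Correlations of deviations from the group means between libraries of the same number depended on the class. In endothelium the tumor pairs named for shared mice were at 0.198 (replicates 1-3), 0.148 (replicate 5) and 0.199 (replicate 6) and the pair of replicate 4 at -0.039, and pairs with lung were at -0.19 to 0.13. In fibroblasts the tumor pairs of replicates 5 and 6 were at -0.18 and -0.052. All same-number pairs were at 0.01 to 0.32 in macrophages, -0.0026 to 0.10 in neutrophils and 0.28 in melanoma cells, where 2 libraries per group fix the opposite value for unlike numbers. The design set the fit without a block as the main one and the block as an alternative, and in endothelium these pairs do not support independence of the tumors.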

Additional observations from a re-analysis of the deposited data

Results flagged for a closer look

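Of 145 groups of 4 to 10 libraries, 8 held a library far from the others of its group (5.52%, where chance alone gives about 5%). In endothelium these were Pkm in lung replicate 1 at 139 CPM, Epas1 in the primary tumor pool of replicates 1-3 at 643 CPM, and the share of UMIs from all members in lung replicate 1 at 0.376%. In macrophages they were Pgk1 in metastasis replicate 6 at 899 CPM, Pfkfb3 in lung replicate 4 at 46.2 CPM and Adm in the metastasis pool of replicates 1-3 at 4.01 CPM. In neutrophils they were Hif1a at 180.3 CPM and Epas1 at 87 CPM, both in lung replicate 4.

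For some members every library of one cell class moved one way and every library of another class the opposite way, and the difference between the classes was not tested. In metastases against primary tumors, Hif1a differed by 0.80 log2 units in melanoma cells but by -1.36 in endothelium and -0.92 in neutrophils. The mitophagy receptor Bnip3 differed by 1.43 in endothelium and -1.17 in fibroblasts. Ankrd37 differed by 2.38 in endothelium, -1.48 in fibroblasts and -0.64 in melanoma cells, and Stc1 by 0.59 in melanoma cells and -3.28 in endothelium. In metastases against lung, Bnip3 differed by 1.504 in endothelium and 3.19 in macrophages but -0.29 in fibroblasts, and Ndrg1 by 2.87 in macrophages and -0.99 in neutrophils. In primary tumors against lung, Gpi1, the isomerase after hexokinase, differed by 2.02 in fibroblasts, 0.75 in endothelium, 1.22 in macrophages and -0.27 in neutrophils. There Bnip3l differed by 0.63 in neutrophils, -0.46 in endothelium and -0.79 in macrophages, and Ndrg1 by 2.73 in endothelium, 2.57 in macrophages and -0.82 in neutrophils. These members were picked because their groups of libraries did not overlap, which small groups reach easily, and no share over all genes was taken. Between the tumors only the differences in endothelium were called. Against lung, those of Bnip3 in fibroblasts, Gpi1 in endothelium and neutrophils, Bnip3l in each class and Ndrg1 in primary tumor neutrophils were not called.

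Among cells in no comparison above, the share of UMIs from the 36 members was above every lung library in some. The lowest metastasis library was at 0.264% for T cells, where the highest lung library was at 0.263%, at 0.306% for ciliated cells and at 0.362% for club cells. For an unnamed cluster led by Plac8, Ly6c2 and Ccr2 the lower primary tumor library was at 0.409% against 0.288% to 0.393% in lung. Melanoma RNA was not subtracted from these shares.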

How the results depend on the processing

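Of 152 member results called, 66 were called under every alternative in which the gene was tested. Of 2497 alternative values of called members 0 had the opposite sign. These values are refits of results already called, on all or part of the same libraries, so that the shared sign is no independent support. Numbers of members called that moved by more than 1.5 times were as follows, and the cause was not tested. Most counts under alternatives stand without the share of all genes called. They therefore cannot tell a change in the members from a change in all genes. DESeq2 called 2 in fibroblasts between metastasis and primary tumor, 10 in fibroblasts between metastasis and lung, and 1 in macrophages between the tumors. With no filter on low counts these became 3, 9 and 1, and the median log2 fold change of all genes moved to as much as 0.33 from 0. With libraries of at least 10 cells, fibroblast calls were 2 between the tumors and 1 between metastasis and lung. With replicates 5 and 6 alone (the run they shared), 0 were called in fibroblasts between metastasis and lung and 4 in endothelium between the tumors, and macrophages and neutrophils then had no primary tumor library. In the clusters that the rule named blood endothelial alone, 4 differed between the tumors. This setting left out the Npr3 cluster, in which blood endothelial markers were also raised, and so does not cover all blood endothelium. Alternatives chosen after seeing the data gave 3 in the Vwf cluster alone for endothelium between the tumors, 2 in the Col1a1 cluster alone for fibroblasts between the tumors, 13 for fibroblasts of primary tumors over lung without cells with 3 melanoma marker UMIs (with Cd63 counted as a marker no metastasis fibroblast library remained), and, with the melanoma profile subtracted, 9 for endothelium of metastases over lung and 1 for macrophages between the tumors.

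With a replicate block 8 members were called in endothelium of metastases over lung, 1 in macrophages between the tumors and 8 in neutrophils of primary tumors over lung, and no other count moved by more than 1.5 times.

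Leaving out 1 library at a time gave these ranges of calls between metastasis and primary tumor, metastasis and lung, and primary tumor and lung. They were 5 to 12, 6 to 22 and 16 to 20 in endothelium, 0 to 1, 0 to 7 and 12 to 22 in fibroblasts, 0 to 0, 11 to 21 and 8 to 26 in macrophages, 0 to 0, 6 to 25 and 7 to 18 in neutrophils, and 0 to 0 between the tumors in melanoma cells. Where such a library left 1 in its group, that one was assumed to vary like the others. Endothelium of metastases over lung fell to 6 without metastasis replicate 5, 9 without replicate 6 and 7 to 9 without any 1 lung library. Macrophages of metastases over lung fell to 11 without metastasis replicate 6 or lung replicate 5. Neutrophils of metastases over lung fell to 6 without metastasis replicate 6, 10 without lung replicate 5 and 13 without lung replicate 6, and those of primary tumors over lung to 10 without primary tumor replicate 4 and 7 without lung replicate 5 or 6. The fibroblast call between the tumors was lost without either metastasis library or without primary tumor replicate 5 or 6, and for fibroblasts of metastases over lung the count was 0 without either metastasis library or lung replicate 4, 1 without lung replicate 5 and 7 without lung replicate 6.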

Other observations

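Other cell types differed in the share of their UMIs that came from the 36 members. B cells were at 0.183% and 0.243% in 2 metastasis libraries and 0.178% to 0.236% in lung, and NK cells at 0.244% and 0.246% in metastases and 0.230% to 0.266% in lung, so that the values of both overlapped or lay close. AT-2 cells, the surfactant-making cells of the alveolus, were at 0.395% in the 1 metastasis library that held enough of them and at 0.165% and 0.249% in lung. A cluster led by Cspg4 and Col16a1, which was given no name, was found in tumor libraries at 0.830% to 1.09%.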
